A study of Mus musculus with 26 samples.

Results

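The genes described here encode the parts of the hemidesmosome and the laminin-binding integrins of keratinocytes: *Itga6*, *Itgb4*, *Itga3*, *Itgb1*, *Lama3*, *Lamb3*, *Col17a1*, *Dst* and *Plec*. These 9 genes, out of 56738 gene symbols counted, were chosen by name for their place in this structure. Earlier results of these data were known at that choice, as they were for the gene lists used below. All 9 were among the 16893 genes that passed the filter on low counts. Counts were measured by bulk mRNA sequencing of primary keratinocytes, the main cell type of the epidermis, from WT mice (n = 5) and mice lacking the phospholipase gene *Pla2g4d* (KO, n = 8). All mice were C57BL/6NJ neonates of 2 days of age. Cells of the peeled epidermis were cultured for 4 days at low calcium, and each mouse gave 1 library under basal conditions and 1 library after 24 h with both cytokines, IL17A at 20 ng/ml and TNFα at 20 ng/ml, so that 13 mice gave 26 libraries. The KO mice carry a CRISPR-Cas9 deletion of exon 3 of *Pla2g4d* and, after backcrossing, were bred as homozygotes, so that their litters held no WT mice. Transcripts of the adhesion machinery were compared with and without IL17A and TNFα, cytokines that drive psoriasis, and between KO and WT cells. In the comparisons of KO with WT cells, the loss of *Pla2g4d* cannot be told apart from differences of litter or breeding line.

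Basal keratinocytes are held on the basement membrane by hemidesmosomes. In these, integrin α6β4 (*Itga6* and *Itgb4*) and the transmembrane collagen XVII (*Col17a1*) bind laminin-332 outside the cell, and the plakins BP230 (a product of *Dst*) and plectin (*Plec*) tie them to keratin filaments inside it. The chains of laminin-332 include α3 and β3 (*Lama3* and *Lamb3*), and it is also bound by integrin α3β1 (*Itga3* and *Itgb1*), which connects to actin in focal adhesions. Mutations in several of these genes cause blistering of the skin, and migrating keratinocytes at a wound edge take hemidesmosomes apart and deposit laminin-332.

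The genes lie on 7 chromosomes of the GRCm39 mouse genome, as placed by GENCODE. The integrin subunit genes are *Itga6* (ENSMUSG00000027111.18, chromosome 2, 71575960 to 71689757, plus strand), *Itgb4* (ENSMUSG00000020758.17, chromosome 11, 115865333 to 115899239, plus strand), *Itga3* (ENSMUSG00000001507.18, chromosome 11, 94935296 to 94967682, minus strand) and *Itgb1* (ENSMUSG00000025809.17, chromosome 8, 129411876 to 129460618, plus strand). The laminin chain genes are *Lama3* (ENSMUSG00000024421.18, chromosome 18, 12466876 to 12717747, plus strand) and *Lamb3* (ENSMUSG00000026639.20, chromosome 1, 192890007 to 193027705, plus strand). The remaining genes are *Col17a1* (ENSMUSG00000025064.16, chromosome 19, 47634783 to 47680533, minus strand), *Dst* (ENSMUSG00000026131.23, chromosome 1, 33946918 to 34347742, plus strand) and *Plec* (ENSMUSG00000022565.16, chromosome 15, 76055174 to 76116774, minus strand). All 9 are protein coding, with between 3 (*Lama3*) and 26 (*Itgb1*) annotated transcripts each. Counts per gene cannot tell these transcripts apart, so that the epithelial form of *Dst*, which encodes BP230, was not separated from its neuronal and muscle forms. A noncoding gene on the opposite strand of *Dst*, *Gm26788*, held 4.28% as many counts as *Dst*, and no other overlapping gene with a count held more than 1.26% of the count of any of the 9 genes. Further overlapping noncoding genes of the annotation had no count under their symbol and were not compared.

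The libraries held between 42072745 and 78102858 counts, of which the 9 genes took 1.07 to 1.43%. Every one of the 9 genes had at least 11270 counts in every library, so that the spread between mice, and not counting error, set the precision. All levels are in CPM, that is, counts scaled by library size and TMM factors. Counts of *Pla2g4d* itself were 3.34 ± 1.36 CPM (WT) against 2.05 ± 0.716 CPM (KO) under basal conditions, and 52.2 ± 14.9 against 38.1 ± 9.55 CPM with cytokines (mean ± SD, n = 5 and 8), which does not check the deletion, since counts over the whole gene include exons outside it. Of 8 markers of basal keratinocytes (3 of them, *Itga6*, *Itgb4* and *Col17a1*, among the 9 genes) all were over the filter, with a summed level of 33165 to 46625 CPM, led by *Krt5*. Suprabasal markers summed to 2366 to 5412 CPM under basal conditions and 507 to 1003 CPM with cytokines, and melanocyte markers to 326 to 659 CPM. Markers of fibroblasts (2.60 to 9.44 CPM), endothelial cells (2.09 to 7.16 CPM, with *Emcn* at 0 in every library) and immune cells (1.73 to 17.1 CPM, with *Cd207*, the Langerhans cell marker, at 0 in every library) were low in all groups.

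**Figure D1:**
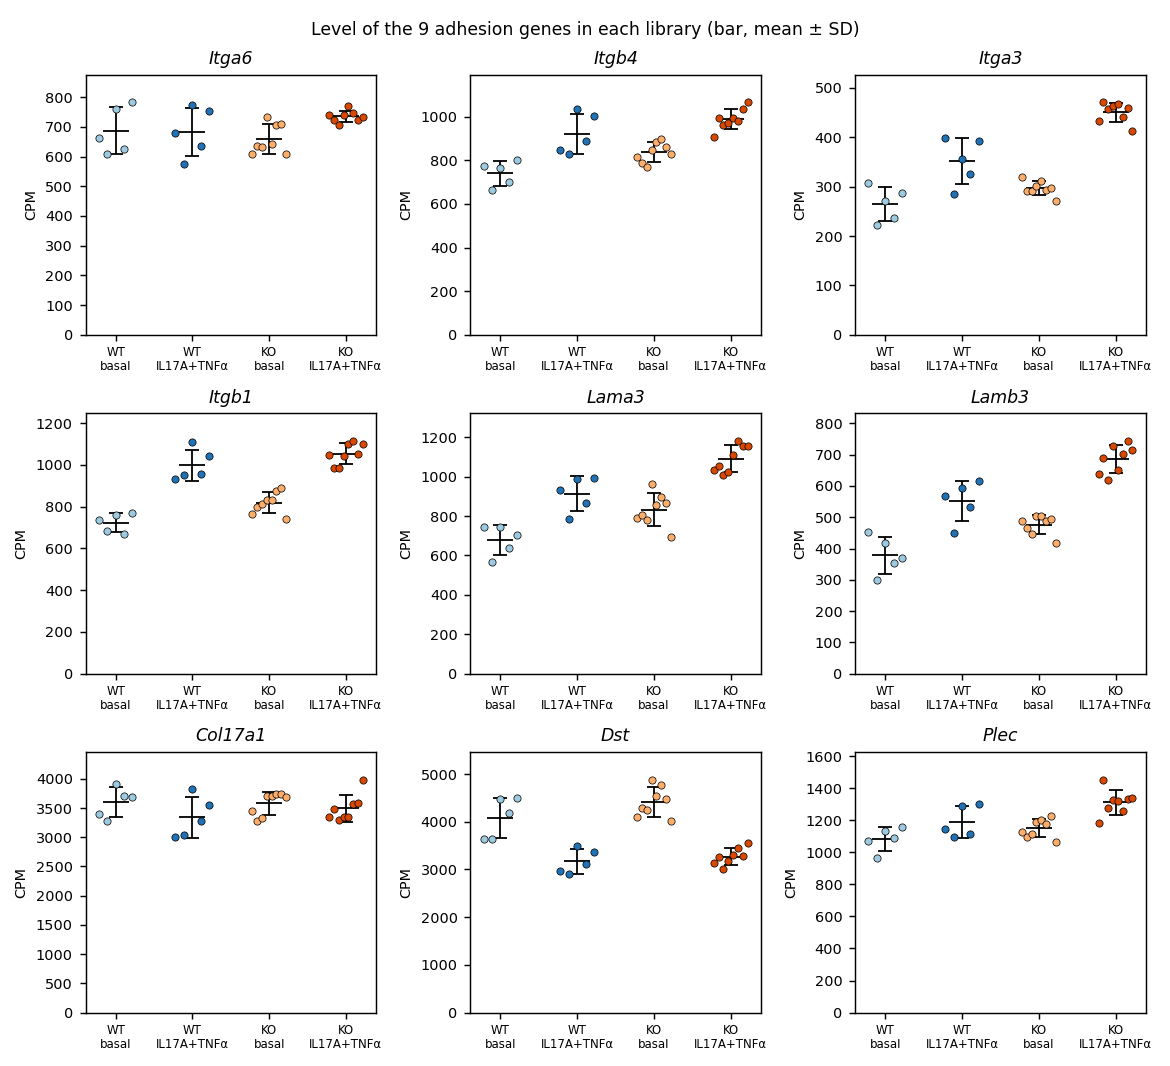
Level of each of the 9 genes in CPM (y axes, from 0) in the libraries of each group (x axis). Each point is 1 library and the bar gives the mean ± SD (n = 5 WT, n = 8 KO). *Itga3*, *Lama3* and *Lamb3* of KO cells with cytokines sit above every WT library, and *Dst* sits lower with cytokines in both genotypes.

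Per kilobase of exon, *Col17a1* was the most abundant of the 9 transcripts in all 4 groups, at 598 ± 42.5 CPM per kb in WT cells under basal conditions, and its range stood apart from the next gene in every group. It was followed by *Itgb1* at 121 ± 7.44 and *Itgb4* at 103 ± 7.89 CPM per kb. The ranges of *Itgb4* and *Dst* (90.5 ± 9.34 CPM per kb) overlapped in basal WT cells. The lower part of the order held *Itga6* at 60.4 ± 6.89, *Plec* at 59.8 ± 4.08, *Lama3* at 52.7 ± 5.96, *Lamb3* at 46.1 ± 7.24 and *Itga3* at 45.5 ± 5.99 CPM per kb, where each gene overlapped the next. These levels divide by the union of all annotated exons, which for *Dst* (45141 bases) and *Itga6* (11382 bases) is far longer than the canonical transcript (23201 and 4413 bases). With the canonical length, *Dst* took rank 2 instead of 4 and *Itga6* rank 3 instead of 5 among the 9 genes in basal WT cells. Under both lengths *Col17a1* was first and *Itga3* last in basal WT cells. In KO cells with cytokines *Itga3* stood at 77.4 ± 3.39 CPM per kb by union length, above *Itga6* at 64.6 ± 1.64 CPM per kb, but by canonical length it stood below it (90.7 and 166.6 CPM per kb). *Itgb1* and *Itgb4* kept ranks 2 and 3 by union length in all 4 groups.

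The 250 bases before the start of the canonical transcript were read from GRCm39 for all 9 genes, since both cytokines are known to act through NF-κB and AP-1, which bind near promoters. Shown are the genes that moved most with cytokines or between genotypes, *Itga3* and *Lamb3*, and *Itgb4*, which held an AP-1 motif. They lie at chr11:94967645-94967894 (*Itga3*, minus strand), chr1:192984051-192984300 (*Lamb3*, plus strand) and chr11:115865083-115865332 (*Itgb4*, plus strand). Letters in capitals mark the AP-1 motif TGANTCA.
Itga3: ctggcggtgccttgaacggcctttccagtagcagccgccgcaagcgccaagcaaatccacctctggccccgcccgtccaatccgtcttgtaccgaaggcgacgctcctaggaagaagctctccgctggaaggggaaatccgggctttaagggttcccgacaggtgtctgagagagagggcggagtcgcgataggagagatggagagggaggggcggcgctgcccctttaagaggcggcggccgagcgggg
Lamb3: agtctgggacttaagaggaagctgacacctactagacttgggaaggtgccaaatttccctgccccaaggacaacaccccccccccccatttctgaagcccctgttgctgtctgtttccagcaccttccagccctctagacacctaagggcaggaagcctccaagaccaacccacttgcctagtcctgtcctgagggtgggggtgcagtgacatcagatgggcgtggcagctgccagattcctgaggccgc
Itgb4: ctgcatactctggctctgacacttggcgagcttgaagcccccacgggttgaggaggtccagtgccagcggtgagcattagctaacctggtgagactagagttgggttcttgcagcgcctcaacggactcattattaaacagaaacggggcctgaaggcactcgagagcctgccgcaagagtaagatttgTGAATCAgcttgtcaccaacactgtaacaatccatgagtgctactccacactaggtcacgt
All motifs were searched on both strands. The motif TGANTCA stood in 2 of the 9 promoters, 61 to 55 bases before the start of *Itgb4* and 174 to 168 bases before that of *Dst*, and in 4.94% of the 12943 promoters read the same way for genes tested. An NF-κB motif, searched by its degenerate consensus, stood in 2 of 9 (*Plec* and *Lama3*) against 8.58% of all. The TATA box letters TATAAA stood in 1 of 9 (*Col17a1*, 2 times) against 7.52%, and the GC box letters GGGCGG in 5 of 9 against 49.3%, with 3 matches each before *Itga3* and *Itga6*, and none of these 4 motifs overlapped another in the 9 promoters. The canonical starts of *Itga3*, *Itga6*, *Dst*, *Plec* and *Lamb3* lie within the annotated spans of these genes, and the start used by these cells is not known from gene counts. These matches describe the letters in this window only.

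With IL17A and TNFα, most of the 9 genes rose by less than 1.5-fold and 1 fell, in cells of both genotypes. In WT cells 6 of 9 rose and 1 fell past an adjusted p of 0.1 (the quasi-likelihood test of edgeR, Benjamini-Hochberg adjusted over all genes tested, which gave every adjusted p unless named otherwise), where 18.8% of all genes rose and 18% fell. In KO cells 7 of 9 rose and 1 fell, where 17.7% of all genes rose and 18.1% fell. Abundant genes passed the test more often: among the 443 genes at least as abundant as *Itga3*, the least abundant of the 9, 37.5% rose in WT and 27.8% in KO cells. The median log2 fold change of the 9 genes was 0.31 in WT and 0.24 in KO cells, against 0.01 and 0.00 over all genes. In bulk samples, a higher level per cell and a larger share of cells with the transcript cannot be told apart. Over the same comparisons 7 of 8 suprabasal markers fell and 0 rose in WT and in KO cells. Of 8 basal markers 3 fell in each, and 1 rose in WT (*Itgb4*) and 2 in KO cells (*Itgb4* and *Itga6*), all of them among the 9 genes. Of 8 melanocyte markers 4 fell and 1 rose in WT, and 6 fell and 0 rose in KO cells. Of 3 endothelial markers over the filter 2 rose in WT and 3 in KO cells (median log2 fold change 0.87 and 0.99), with *Emcn* at 0. The summed level of all 6 endothelial markers listed lay between 2.09 and 3.48 CPM in basal WT cells and between 4.10 and 6.37 CPM with cytokines, and for KO cells between 2.30 and 5.25 and between 5.77 and 7.16 CPM. The part of these markers in the changes of the 9 genes was not tested.

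By fitted fold change, *Lamb3* rose most of the 9 genes in WT cells and *Itga3* in KO cells. *Lamb3*, the β3 chain, was at 454, 299, 418, 353 and 371 CPM in basal WT cells and at 567, 450.5, 593, 534 and 615 CPM with cytokines (replicates 1 to 5). The highest basal library lay just above the lowest treated one, so that the ranges overlapped slightly, although the level rose within every mouse. The rise was 1.46-fold (log2 fold change 0.54 ± 0.09, adjusted p = 9.22e-06). In KO cells *Lamb3* went from 418, 488 and 506 CPM (lowest, median and highest of 8) to 619, 697 and 743 CPM with no overlap, a rise of 1.44-fold (log2 fold change 0.52 ± 0.07, adjusted p = 3.42e-07). *Lama3*, the α3 chain, went from 746, 567, 743, 636 and 706 to 930.0, 784, 989.8, 866 and 993 CPM in WT cells, with every treated library above every basal one (log2 fold change 0.43 ± 0.08, adjusted p = 0.000109). In KO cells it went from 692, 831 and 965 CPM to 1007, 1083 and 1179.7 CPM, again apart (log2 fold change 0.39 ± 0.06, adjusted p = 1.32e-05).

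*Itga3*, whose product pairs with integrin β1 to bind laminin-332, was at 306, 223, 270.4, 237 and 288 CPM in basal WT cells and at 399, 285, 357, 326 and 393 CPM with cytokines. WT replicate 2 was lowest in both conditions, and its treated library lay below the highest basal one, so that the ranges overlapped. The rise was 1.33-fold (log2 fold change 0.41 ± 0.08, adjusted p = 0.000116). In KO cells *Itga3* went from 272, 296 and 320.2 CPM to 413, 458 and 471 CPM, far apart. This was the only rise of the 9 genes over 1.5-fold in KO cells, at 1.51-fold (log2 fold change 0.60 ± 0.06, adjusted p = 5.41e-09), where 10.9% of all genes passed both thresholds. In WT cells 0 of 9 did, as against 13.9% of all genes. DESeq2 and limma also gave 0, where 2448 and 2550 of all genes passed both thresholds.

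Its partner *Itgb1*, the common β1 subunit, rose from 735, 684, 761, 670.1 and 768 to 930.1, 953, 1109, 957 and 1040.1 CPM in WT cells, which left the ranges well apart (log2 fold change 0.46 ± 0.06, adjusted p = 1.16e-07). In KO cells it rose from 742, 821 and 887 CPM to 983, 1049.8 and 1113 CPM (log2 fold change 0.36 ± 0.04, adjusted p = 1.13e-07). The hemidesmosomal β4 subunit *Itgb4* rose in every mouse, and its groups did not overlap in either genotype. It went from 775, 664, 763, 702 and 804 to 845, 828, 1036, 891 and 1004 CPM in WT cells (log2 fold change 0.31 ± 0.06, adjusted p = 0.000191) and from 769.6, 838 and 899 CPM to 909, 988 and 1066 CPM for KO (log2 fold change 0.24 ± 0.05, adjusted p = 0.000236).

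*Itga6*, the α6 subunit that pairs with β4, did not pass the test in WT cells. It was at 663, 609, 758, 625.2 and 782 CPM under basal conditions and at 678, 576, 772, 636 and 752 CPM with cytokines, and 3 of 5 mice went up (log2 fold change -0.01 ± 0.07, adjusted p = 0.937, 95% interval -0.16 to 0.14). In KO cells *Itga6* went from 607, 639 and 733 CPM to 707, 736 and 769 CPM and up in 8 of 8 mice, with overlapping ranges (log2 fold change 0.16 ± 0.06, adjusted p = 0.0368). Without KO replicate 5 or 8 the adjusted p of that rise was 0.101 and 0.102. Within a library, the log2 ratio of *Itgb4* to *Itga6* CPM was 0.11 ± 0.09 under basal conditions and 0.43 ± 0.08 with cytokines in WT cells, and 0.35 ± 0.09 and 0.43 ± 0.08 in KO cells (mean ± SD, not tested). That of *Itga3* to *Itga6* was -1.38 ± 0.15 and -0.96 ± 0.13 in WT and -1.15 ± 0.12 and -0.71 ± 0.07 in KO cells. These ratios are not corrected for length, so that only their differences between groups can be read.

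The 2 plakins moved in opposite directions. *Dst* was at 3641, 3648, 4469.8, 4175 and 4493 CPM in basal WT cells and fell to 2978, 2895, 3502, 3109.7 and 3372 CPM, with every treated library below every basal one (log2 fold change -0.37 ± 0.07, adjusted p = 6.05e-05). In KO cells it fell from 4022, 4389 and 4873 CPM to 3007, 3272 and 3552 CPM, also apart (log2 fold change -0.43 ± 0.05, adjusted p = 1e-07). *Plec* rose little, from 1072, 966, 1131, 1093 and 1157 to 1148, 1094, 1290.2, 1117 and 1304 CPM in WT cells, with overlapping ranges (log2 fold change 0.14 ± 0.06, adjusted p = 0.0765). That call was lost on leaving out any 1 of WT replicates 1, 2, 3 and 5 or KO replicates 6 and 8, with adjusted p between 0.111 and 0.175. It was also lost with upper quartile factors (0.113), total count scaling (0.17), no filter on low counts (0.118) and only the groups compared (0.16). In KO cells *Plec* rose from 1066, 1152 and 1226 CPM to 1185, 1325 and 1451 CPM (log2 fold change 0.19 ± 0.05, adjusted p = 0.00166). The log2 ratio of *Dst* to *Plec* CPM within a library was 1.91 ± 0.09 under basal conditions and 1.41 ± 0.05 with cytokines in WT cells, and 1.94 ± 0.06 and 1.32 ± 0.10 in KO cells, and its range with cytokines lay below that under basal conditions in both. The keratins that hemidesmosomes anchor also fell: *Krt5* by 0.31 in both genotypes and *Krt14* by 0.46 in WT and 0.45 in KO cells on the log2 scale (adjusted p between 8.89e-12 and 9.64e-06).

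*Col17a1*, the most abundant of the 9 per length, was at 3406, 3276, 3919.8, 3699 and 3682 CPM in basal WT cells and at 3009.7, 3033, 3833, 3273 and 3557 CPM with cytokines. It was lower in 5 of 5 WT mice, with overlapping ranges, and did not pass (log2 fold change -0.11 ± 0.06, adjusted p = 0.224, 95% interval -0.24 to 0.02). With the mouse as a block the adjusted p was 0.0315. In KO cells it was at 3272, 3703 and 3745 CPM and then at 3288, 3420.4 and 3978 CPM, lower in 6 of 8 mice (log2 fold change -0.04 ± 0.05, adjusted p = 0.666).

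**Figure D2:**
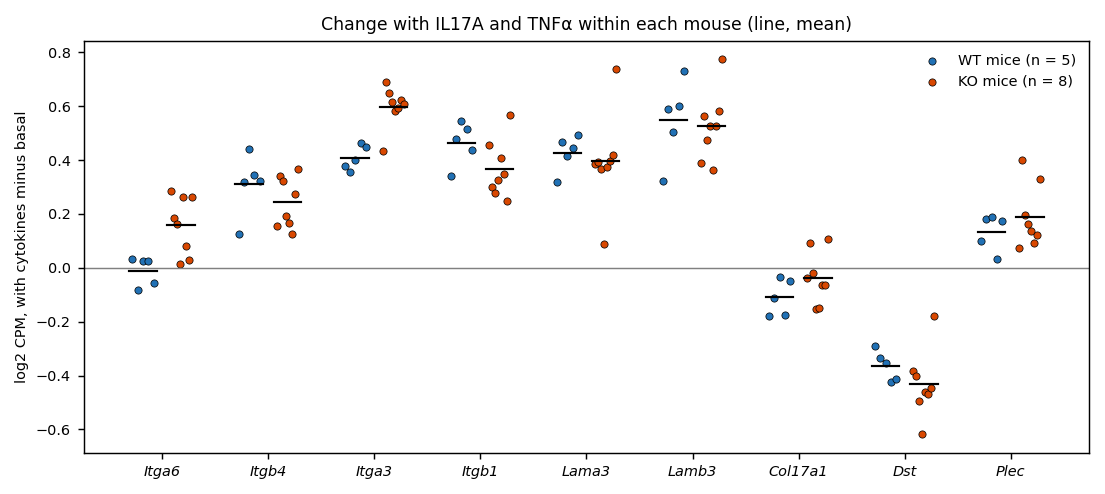
Log2 CPM with cytokines minus basal for each gene (x axis) in each of 5 WT and 8 KO mice (points, with the mean as a line). *Itga3*, *Itgb1*, *Itgb4*, *Plec*, *Lama3* and *Lamb3* are above 0 and *Dst* is below 0 in 13 of 13 mice.

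Counted by mouse, 6 genes (*Itga3*, *Itgb1*, *Itgb4*, *Plec*, *Lama3* and *Lamb3*) rose in 13 of 13 mice and *Dst* fell in 13 of 13. The share of all genes that moved one way in every mouse was not counted. *Krt5* and *Krt14*, outside the 9 genes, also fell in every mouse. The groups did not overlap for 4 of 9 genes in WT cells (3 higher, 1 lower), where 20.5% of all genes did not. In KO cells this held for 6 of 9 (5 higher, 1 lower), where 11.8% of all genes did not. The within-mouse change of *Itga3* was between 0.36 and 0.46 in WT mice and between 0.43 and 0.69 in KO mice (log2). That of *Lama3* was wider in KO mice, from 0.09 in replicate 4 to 0.74 in replicate 8.

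Between genotypes under basal conditions, both laminin chains and both β subunits were higher in KO cells, by 1.13- to 1.26-fold. Of the 9 genes 4 were higher and 0 lower past an adjusted p of 0.1, where 7.57% of all genes were higher and 6.06% lower. Among the 443 genes at least as abundant as *Itga3* the share higher was 28.9%. At an unadjusted p under 0.05 the counts were 5 higher and 0 lower, and the share of all genes at that threshold was not counted. DESeq2 and limma on the log2 values each gave 4 and 0 by the adjusted p. Over all genes DESeq2 gave 1353 higher and 1103 lower, and limma 1358 and 1058. With total counts in place of TMM, the calls over all genes shifted from 1279 higher and 1024 lower to 1010 higher and 1335 lower, and the 9 genes still gave 4 and 0. None of the 9 genes passed the fold threshold of 1.5 as well (0 of 9, against 2.68% of all genes), nor did the ranges of WT and KO libraries stand apart for any (0 of 9, against 3.03% of all genes). Of 8 suprabasal markers 3 were lower and 0 higher in basal KO cells, of 8 basal markers 2 were higher (*Itgb4*, itself among the 9 genes, and *Trp63*) and 0 lower, and of 3 endothelial markers 1 was higher (*Pecam1*). The part of these markers in the differences was not tested.

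*Lamb3* was at 454, 299, 418, 353 and 371 CPM in WT cells against 418, 488 and 506 CPM for KO cells (log2 fold change 0.33 ± 0.08, adjusted p = 0.00553). Of the WT libraries, replicates 1 and 3 lay above the lowest KO library and the other 3 below every KO library. *Lama3* was at 746, 567, 743, 636 and 706 CPM in WT cells against 692, 831 and 965 CPM in KO cells, and 7 of 8 KO libraries were above every WT one (log2 fold change 0.29 ± 0.07, adjusted p = 0.00916).

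*Itgb1* (0.18 ± 0.05, adjusted p = 0.0247) and *Itgb4* (0.17 ± 0.06, adjusted p = 0.0459) differed by less, given as log2 fold change ± SE. Both calls were lost without WT replicate 4 (adjusted p = 0.105 and 0.145), and without WT replicate 2 that of *Itgb4* was 0.146. Without WT replicate 4, then, 2 of 9 genes passed, and over each of the 13 mice left out the count lay between 2 and 5. Over all genes 2303 passed with every mouse and 1661 without WT replicate 4. *Itga3* did not pass (log2 fold change 0.17 ± 0.07, adjusted p = 0.141), and its adjusted p was 0.0891 with the mouse as a block and 0.0261 without WT replicate 1. *Dst* (0.11), *Plec* (0.09), *Col17a1* (-0.01) and *Itga6* (-0.06) had log2 fold changes whose 95% intervals included 0 and lay between -0.19 and 0.23.

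**Figure D3:**
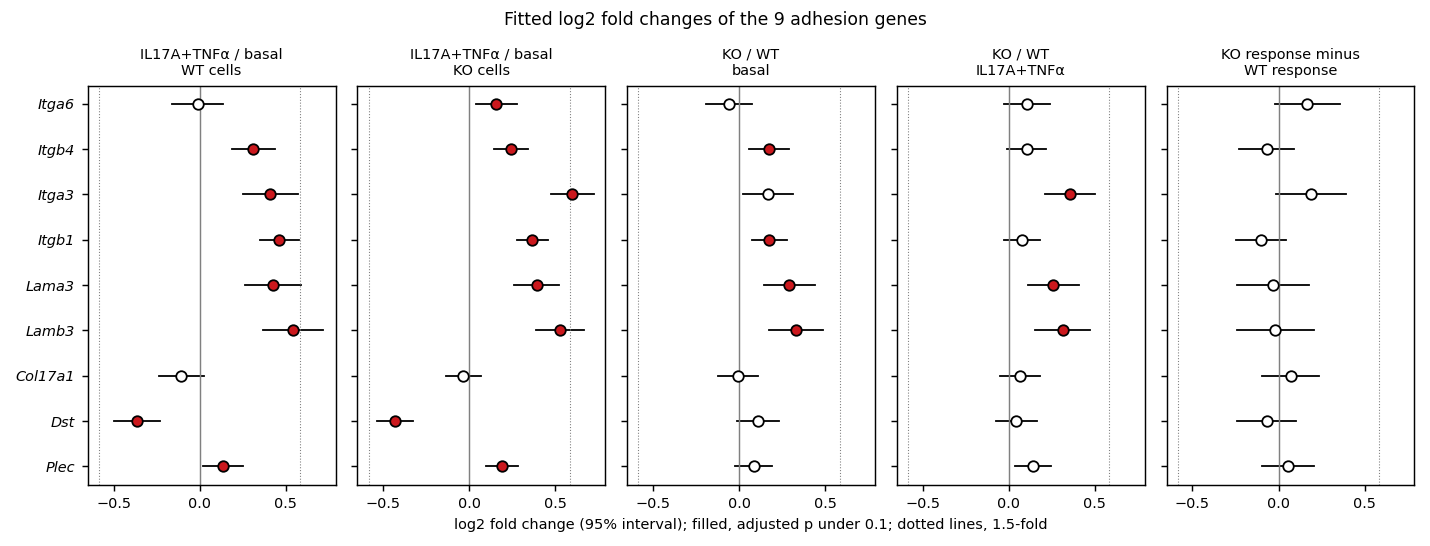
Fitted log2 fold change (x axis) with its 95% interval for each gene (y axis) in the 5 comparisons, one panel each. Filled points passed an adjusted p of 0.1 and dotted lines mark a fold change of 1.5. *Lamb3* and *Lama3* are filled in the first 4 panels and no point is filled in the last.

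With cytokines present, *Itga3*, *Lamb3* and *Lama3* were higher in KO than in WT cells, and each KO library was above each WT library for these 3 genes. So 3 of 9 genes were higher and 0 lower past the adjusted p, where 1.22% of all genes were higher and 1.62% lower, and 5.42% of the 443 genes at least as abundant as *Itga3* were higher. The shares over all genes rested on single mice. From 206 higher and 273 lower, they went to 1059 and 1002 genes without WT replicate 1 and to 438 and 683 without KO replicate 8, and the 9 genes gave 3 and 0 in each case. Without any 1 of the other 4 WT mice or of KO replicates 1, 2, 3, 5 and 6, between 111 and 264 genes passed in all. At an unadjusted p under 0.05 the counts were 4 higher and 0 lower, and the share of all genes at that threshold was not counted. DESeq2 and limma each gave 3 and 0 by the adjusted p. Over all genes DESeq2 gave 304 higher and 362 lower, and limma 241 and 228. The ranges stood apart for 3 of 9 genes, against 1.09% of all genes. The fold stayed under 1.5 for 9 of 9, so that 0 of 9 passed both thresholds, against 0.704% of all genes. Of 8 suprabasal markers 5 and of 8 melanocyte markers 4 were lower in KO cells here, with summed melanocyte levels of 351 to 502 CPM in WT and 326 to 428 CPM in KO cells, and the part of this in the differences was not tested.

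*Itga3* was at 399, 285, 357, 326 and 393 CPM in WT cells against 413, 458 and 471 CPM in KO cells with cytokines, a 1.28-fold difference (log2 fold change 0.36 ± 0.07, adjusted p = 0.0154). It spread less among the 8 KO libraries (coefficient of variation 4.39%) than among the 5 WT libraries (13.5%). *Lamb3* was at 567, 450.5, 593, 534 and 615 CPM in WT cells against 619, 697 and 743 CPM in KO cells, where the highest WT library came within a few CPM of the lowest KO library (log2 fold change 0.31 ± 0.08, adjusted p = 0.0436). *Lama3* was at 930.0, 784, 989.8, 866 and 993 CPM in WT cells against 1007, 1083 and 1179.7 CPM in KO cells, likewise barely apart (log2 fold change 0.26 ± 0.07, adjusted p = 0.0728). The call of *Lama3* was lost on leaving out any 1 of WT replicates 2, 3 and 4 or KO replicates 1, 2, 5, 6 and 7 (adjusted p between 0.1005 and 0.209), and that of *Lamb3* without WT replicate 4 (0.136), which left 1 of 9 genes, *Itga3*.

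The other 6 genes did not pass. *Plec* came nearest (0.14 ± 0.05, adjusted p = 0.182), followed by *Itgb4* (0.10 ± 0.06, adjusted p = 0.383), *Itga6* (0.11 ± 0.07, adjusted p = 0.462) and *Itgb1* (0.08 ± 0.05, adjusted p = 0.509). *Col17a1* and *Dst* had log2 fold changes of 0.06 (95% interval -0.05 to 0.18) and 0.04 (95% interval -0.08 to 0.17). All 9 fitted values were above 0, with a median of 0.11 against -0.01 over all genes. Every comparison shares libraries with others, the cytokine comparisons sharing their basal and treated groups with those between genotypes, so that their values are given side by side and were not compared as if independent.

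Whether the response to cytokines differed between genotypes was tested as the interaction of both. None of the 9 genes passed (0 of 9, where 0.983% of all genes did, and 0 of 9 with the fold threshold, where 0.219% did). At an unadjusted p under 0.05 the count was 0 as well, and the share of all genes at that threshold was not counted. DESeq2 and limma also gave 0 by the adjusted p, where 232 and 150 of all genes passed. The highest values were those of the α subunits, *Itga3* (0.19 ± 0.10, adjusted p = 0.586, 95% interval -0.01 to 0.39) and *Itga6* (0.17 ± 0.09, adjusted p = 0.608, 95% interval -0.02 to 0.36), both toward a higher response in KO cells. With the mouse as a block, 1 of 9 genes passed, *Itga3* (log2 difference 0.19, adjusted p = 0.0493). The 95% intervals of *Lama3* (-0.24 to 0.17) and *Lamb3* (-0.24 to 0.20) were centered near 0. Over all genes 34 interactions were positive and 132 negative, and 43 and 84 with total counts in place of TMM.

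Libraries of 1 group that were high in one of the 9 genes tended to be high in the others. After removal of the group means, all 36 pairs of genes had a positive Pearson r over the 26 libraries, from 0.09 (*Itga3* and *Col17a1*) to 0.85 (*Lama3* and *Lamb3*), with a median of 0.68. *Itgb4* went with *Col17a1* (0.81) and *Plec* (0.80), and *Dst* with *Col17a1* (0.80). *Itga3* stood closest to *Lamb3* (0.77) and farthest from the hemidesmosomal genes *Col17a1* and *Dst* (0.19), although its partner *Itgb1* was at 0.28. These libraries share mice, depth and composition, and the values are a description. The mean standardized deviation of the 9 genes was lowest in WT replicate 2 in both conditions (-1.70 basal, -1.63 with cytokines) and highest in WT replicates 3 and 5, and its r with the log2 total count was -0.157. Without WT replicate 2, the 3 genotype calls with cytokines became 2, and those under basal conditions 3. The genotype calls over all genes also went down without it, from 479 to 180 with cytokines and from 2303 to 1690 under basal conditions.

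**Figure D4:**
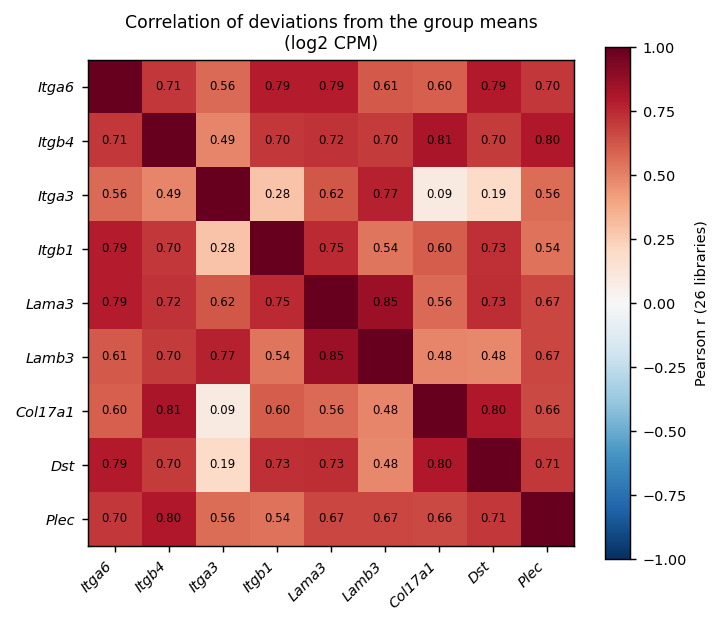
Pearson r between the 9 genes (both axes) of deviations from the group means of log2 CPM over 26 libraries, with color from -1 to 1. All 36 values are above 0, and *Itga3* has the lowest, with *Col17a1*, *Dst* and *Itgb1*.

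Of the 12956 genes with a mean over 1 CPM, the log2 CPM most like the mean of the 9 genes over the 26 libraries included that of *4933439K11Rik* (r = 0.90), *Agrn* (0.87), *Fat1* (0.87) and *Ptk2* (0.87). *Agrn* encodes the basement membrane proteoglycan agrin and *Ptk2* focal adhesion kinase. With the group means removed, the nearest were *Vcl*, the gene of the focal adhesion protein vinculin (0.88), *4933439K11Rik* (0.86), *Crim1* (0.85), *Slc7a1* (0.85) and *Cdh3*, the gene of P-cadherin (0.85).

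The wider adhesion machinery was read from 5 lists ordered by role. Of 23 tested basement membrane chains and associated proteins, 14 rose and 8 fell with cytokines in WT cells, and 12 rose and 8 fell in KO cells, where 18.8% of all genes rose and 18% fell in WT and 17.7% and 18.1% in KO cells. *Lama4*, the laminin α4 chain, rose from 3.06 ± 0.612 to 31.3 ± 5.47 CPM in WT cells (log2 fold change 3.35, adjusted p = 1.05e-16), and *Lama1* rose as well (log2 fold change 1.81, adjusted p = 3.18e-06). *Fras1*, a basement membrane protein of the embryonic skin, fell from 164 ± 30.9 to 10.5 ± 1.96 CPM (log2 fold change -3.96, adjusted p = 1.63e-17), and was at 10.2 ± 1.67 CPM in KO cells with cytokines, and its partner *Frem2* fell in WT cells (log2 fold change -2.73, adjusted p = 0.000102). *Tgfbi*, a secreted adhesion protein that binds collagen, fell in KO cells from 161 ± 16.1 to 42.9 ± 6.74 CPM with cytokines (log2 fold change -1.91, adjusted p = 6.47e-15). Its level was lower with cytokines in WT cells as well, at 240 ± 48.0 CPM under basal conditions and 62.4 ± 12.7 CPM with cytokines. Between genotypes 10 were higher and 4 lower in basal KO cells (7.57% and 6.06% of all genes), and 6 were higher and 1 lower with cytokines (1.22% and 1.62% of all genes). *Col4a1*, a chain of type IV collagen, went from 191 ± 28.6 to 302 ± 22.6 CPM between WT and KO cells with cytokines (log2 fold change 0.66, adjusted p = 3.88e-05), while *Tgfbi* was lower (log2 fold change -0.54, adjusted p = 0.0168). *Nid2* and *Frem1* did not pass the filter.

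Of 15 other integrins and tetraspanins, 7 rose and 3 fell with cytokines in WT and 8 rose and 3 fell in KO cells, beside the same shares of all genes. *Itga2*, a collagen-binding subunit of keratinocytes, rose most, from 99.2 ± 12.8 to 279 ± 41.5 CPM in WT (log2 fold change 1.49, adjusted p = 5.29e-12) and from 126 ± 18.2 to 305 ± 27.9 CPM for KO (log2 fold change 1.28, adjusted p = 6.48e-13). *Itgav* rose (log2 fold change 0.95, adjusted p = 4.86e-12 in WT) and *Itgb8* fell (log2 fold change -1.51, adjusted p = 2.03e-07 in WT). *Cd151*, the tetraspanin of hemidesmosomes and a partner of α3β1 and α6β4, rose by 0.34 in WT and 0.25 in KO cells on the log2 scale (adjusted p = 2.88e-05 and 7.98e-05), although *Polr2l*, which overlaps it on the opposite strand, held 15.6% as many counts. Between genotypes 4 were higher and 2 lower under basal conditions (7.57% and 6.06% of all genes), with *Itgb6* up (log2 fold change 0.37, adjusted p = 0.000857) and *Itga1* down (log2 fold change -0.66, adjusted p = 0.00966). With cytokines 0 of 15 passed by edgeR, against shares of 1.22% higher and 1.62% lower over all genes by the same adjusted p. At an unadjusted p under 0.05, 1 was higher and 3 were lower, and the share of all genes at that threshold was not counted.

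Focal adhesion linkers, which join β1 integrins to actin, held the largest share of genotype differences under basal conditions among the 5 lists. Of 20 tested, 17 were higher and 0 lower in basal KO cells, by the adjusted p and also at an unadjusted p under 0.05, where 7.57% of all genes were higher and 6.06% lower by the adjusted p, and 28.9% of the 443 genes at least as abundant as *Itga3* were higher. That last share does not match the list in abundance, since linkers such as *Tns3*, *Fermt2* and *Fermt1* were less abundant than *Itga3*. *Fermt2*, the gene of kindlin-2, went from 31.3 ± 2.69 to 49.8 ± 6.79 CPM from WT to KO (log2 fold change 0.67, adjusted p = 4.96e-07), *Tns3* from 14.6 ± 5.42 to 26.4 ± 5.24 CPM (log2 fold change 0.85, adjusted p = 0.00138) and *Actn4* from 1290.1 ± 28.1 to 1456 ± 25.9 CPM (log2 fold change 0.17, adjusted p = 0.000642). With cytokines 3 of 20 were higher, *Parva*, *Src* and *Actn1*, by 0.14 to 0.20 on the log2 scale, where 1.22% of all genes were. Cytokines raised 14 and lowered 1 in WT cells, and raised 11 and lowered 2 in KO cells (18.8% and 18% of all genes in WT, 17.7% and 18.1% in KO cells), led by *Fermt1*, the gene of kindlin-1 (log2 fold change 1.06, adjusted p = 1.09e-12 in WT; log2 fold change 0.67, adjusted p = 7.13e-11 in KO cells). The interaction passed for 6 of 20 (0.983% of all genes), each with a lower response in KO cells, among them *Ilk* (-0.32, adjusted p = 0.0101), *Fermt2* (-0.49, 0.0185), *Fermt1* (-0.39, 0.0429) and *Tns4* (-0.26, 0.0669). In the other 4 lists 0 genes passed the interaction by edgeR, and at an unadjusted p under 0.05 there were 2 positive and 1 negative of 23, 0 and 2 of 15, 0 and 5 of 15, and 0 and 0 of 8, against 0 positive and 13 negative of the 20 focal adhesion linkers. The share of all genes at that unadjusted p was not counted. Among all genes past the adjusted p, 34 interactions were positive and 132 negative. The interaction subtracts the basal libraries in which 17 of 20 linkers were higher in KO cells, so that these results are not independent.

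**Figure D5:**
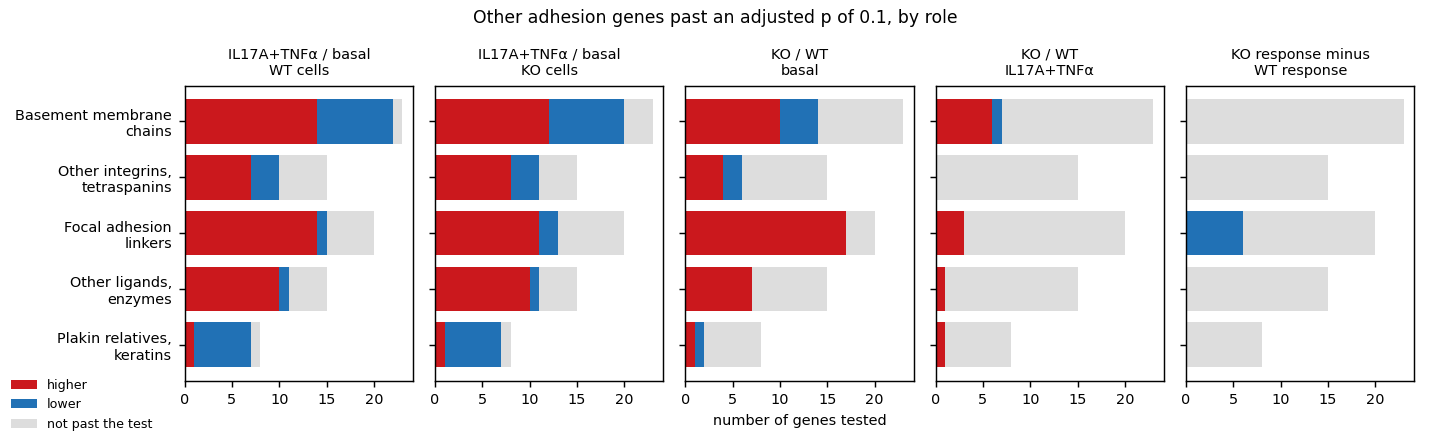
Number of tested genes (x axis) of 5 adhesion lists (y axis) that were higher, lower or not past an adjusted p of 0.1 in the 5 comparisons, one panel each. In basal KO cells 17 of 20 focal adhesion linkers are higher, and in the last panel 6 of 20 are lower while the other lists have none.

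Among 15 other ligands and processing enzymes, 10 rose and 1 fell with cytokines in each genotype, and 7 were higher and 0 lower in basal KO cells. Over all genes 18.8% rose and 18% fell in WT cells, 17.7% and 18.1% in KO cells, and 7.57% were higher and 6.06% lower in basal KO cells. *Fn1*, the gene of fibronectin, rose from 114 ± 20.1 to 247 ± 64.2 CPM in WT cells (log2 fold change 1.11, adjusted p = 1.13e-06) and was at 237 ± 34.9 CPM in basal KO cells (log2 fold change 1.05, adjusted p = 1.15e-05 against WT). *Mmp9*, a gelatinase, rose from 2.12 ± 0.373 to 25.3 ± 7.15 CPM in WT cells (log2 fold change 3.57, adjusted p = 2.15e-13). With cytokines 1 of 15, *Fn1*, was higher in KO cells, where 1.22% of all genes were (log2 fold change 0.46, adjusted p = 0.0947). *Vtn* did not pass the filter. Of 8 plakin relatives and keratins, 6 fell and 1 rose with cytokines in each genotype, beside the same shares of all genes, with *Krt15* (log2 fold change -2.25, adjusted p = 5.99e-08) and the plakin *Ppl*, periplakin (log2 fold change -0.65, adjusted p = 1.27e-06), falling in WT cells. *Krt15* (log2 fold change -1.76, adjusted p = 4.60e-08) and *Ppl* (log2 fold change -0.62, adjusted p = 5.04e-08) also fell in KO cells. Between genotypes the plakin *Eppk1* was higher in KO cells in both conditions (log2 fold change 0.24, adjusted p = 0.084 basal; log2 fold change 0.29, adjusted p = 0.0987 with cytokines), and *Ppl* was lower under basal conditions (log2 fold change -0.24, adjusted p = 0.0603).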

How the data were processed

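Bulk mRNA sequencing was done on 26 libraries of primary keratinocytes, from 5 WT and 8 KO mice. The authors aligned the reads of stranded libraries to mm39 with STAR 2.7.10b and counted them per gene with featureCounts 2.0.6 and GENCODE release 31, and the deposited counts are raw values for 56738 gene symbols. The strand setting of the counting is not given in the sources used here. The authors also deposited log2 normalized counts (the log2 of counts divided by a size factor, plus 1), which were used only in an alternative and differed from the counts by over 0.01 in log2 for 50 symbols, none of them among the 9 genes.

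Genes with a mean normalized count over 10 were kept (16893). The test was run in R 4.3.3 with edgeR 4.0.16, using TMM normalization, a quasi-likelihood fit of the 4 groups with no covariate, and Benjamini-Hochberg adjustment over all genes. The 5 contrasts were the cytokine effect in each genotype, the genotype effect in each condition and the interaction of both. Past the test means an adjusted p under 0.1, and called means a fold change over 1.5 as well, the thresholds of the study. No share of all genes was counted at an unadjusted p. Standard errors and 95% intervals were derived from the F statistic of each gene. A prior count of 1 was added for log2 CPM. Libraries held 42072745 to 78102858 counts. All pairs of libraries within a group differed by more than sampling noise (lowest chi-square per degree of freedom 7.37). The procedure was tested on simulated data.

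The 9 genes, the 5 adhesion lists and the marker lists were chosen with earlier results of these data known. Named from the lists were *Cd151*, *Krt5* and *Krt14*, and per list and contrast the 2 highest and 2 lowest log2 fold changes among genes past the test with a mean over 1 CPM, and the 5 genes most like the 9 by each of 2 correlations. Some genes that this rule names are not reported here. The comparison with genes at least as abundant as *Itga3* was added after the data were seen. Gene positions, lengths and promoters were taken from GRCm39 and GENCODE release 39, to which 52342 symbols matched.

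Basal and treated libraries with one number came from the same mouse and are paired. The deviations of such pairs from their group means had an r of 0.000509 to 0.254 (median 0.106). The fit with the mouse as a replicate block used edgeR for the cytokine effects and the interaction, and limma 3.58.1 with an estimated correlation of 0.143 for the genotype effects. Other alternatives were DESeq2 size factors, upper quartile factors, total counts, DESeq2 1.42.0, limma on the deposited log2 values, filterByExpr or no filter at all, only the groups compared, a sex score as a covariate (sex is not in the labels), an adjusted p under 0.05, and each mouse left out in turn. Whether mice shared litters or sequencing runs is not given in the sources used here.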

Additional observations from a re-analysis of the deposited data

Results flagged for a closer look

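*Col17a1*, the collagen XVII gene, was at 3978 CPM in replicate 8 of KO cells with cytokines, far above the other 7 libraries of that group, whose highest was 3586 CPM. It was the only library to stand apart in this way among 36 combinations of the 9 genes and 4 groups, where chance alone gives about 1 in 20. In the same library *Itga3* was the lowest of its group, at 413 CPM.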

How the results depend on the processing

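Of 1071 log2 fold changes of single genes read under the alternatives, 1039 kept their side of the threshold, 26 lost a call, 6 gained one and 0 reversed a called direction. These include the unchanged main fit read at an adjusted p under 0.05. They also include cytokine effects in 1 genotype with a mouse of the other left out, where the fold change could move little. The number kept is therefore not a measure of independent checks. With the mouse as a replicate block, 1 of 9 genes instead of 0 passed the interaction, *Itga3*, as *Itga3* did under basal conditions and *Col17a1* in WT cells with cytokines, and the block changed no other call of the 9 genes. When single mice were left out, the genes called with the fold threshold for cytokines in WT cells numbered 0 to 1 (*Lamb3* without WT replicate 1), those past the test between genotypes 2 to 5 under basal conditions and 1 to 3 with cytokines, the lowest of both without WT replicate 4. Those past the test with cytokines numbered 6 to 7 in WT and 7 to 8 in KO cells. Over all genes, the genotype effect with cytokines gave 479 genes past the test, 867 with only the groups compared, 173 at an adjusted p under 0.05, and 111 to 2061 with each mouse left out. The interaction gave 166, 473 with the block, 85 at an adjusted p under 0.05 and 60 to 295 with each mouse left out. The interaction could not be fitted with only 2 groups. By CPM without correction for length, *Dst* ranked 1 and *Col17a1* 2 in basal WT cells. The causes of these shifts were not tested. With at least 11270 counts per gene and library, counting error was small beside the spread between mice.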
